A study of Mus musculus with 30 samples.

Results

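The colorectal tumor drivers and suppressors described here are 8 genes, Apc, Ctnnb1, Trp53, Braf, Pik3ca, Smad4, Fbxw7 and Tcf7l2, out of 46078 genes counted in normal mouse colon. They were chosen by name, because their human counterparts are mutated in colorectal cancer (CRC), and no measured value enters the rule, although earlier results of these data were known when they were chosen. Each of the 8 names matched 1 gene, and all 8 had counts in all 30 libraries and were tested in each comparison. RNA-seq was made from colon tissue of C57BL/6J mice bred in-house, with 6 libraries per group. For RNA isolation the study names frozen distal colon tissue and the epithelial layer, and it places the E2 response in distal colon. No animal carried a tumor model allele in the labels, and the females were not ovariectomized.

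The 5 groups were females and males on control diet (CD F and CD M), females and males on high-fat diet (HFD F and HFD M), and HFD males given estradiol (HFD+E2 M). The diets drew 10% (CD) or 60% (HFD) of their energy from fat, began at 5 to 6 weeks of age and lasted 13 weeks. During the last 3 weeks each animal received 9 intraperitoneal injections, of E2 at 0.5 mg/kg body weight in HFD+E2 M and of vehicle in the other groups. No CD group was given E2, and no female was, so the E2 comparison applies to HFD males only.

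APC is part of the complex that marks beta-catenin, the product of CTNNB1, for destruction. When Wnt ligands stop that complex, beta-catenin enters the nucleus and activates targets together with TCF7L2, the main T-cell factor of the intestinal epithelium, and this keeps crypt stem cells dividing. BRAF passes growth signals from RAS to the MAP kinases, and PIK3CA is a catalytic subunit of PI3-kinase. SMAD4 carries TGF-beta and BMP signals to the nucleus, p53 (the product of Trp53) halts the cell cycle after DNA damage, and FBXW7 is the part of a ubiquitin ligase that picks substrates such as MYC and cyclin E. In CRC, APC, SMAD4 and FBXW7 are lost or weakened by mutation, whereas CTNNB1, BRAF and PIK3CA are activated. These are mutations of the coding sequence. Messenger RNA levels in normal colon tissue, as measured here, do not show protein activity.

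Ctnnb1 and Tcf7l2 encode the partners of the same nuclear complex and varied most of the 8 genes between libraries. The 250 bases before their first listed start site are therefore shown (RefSeq, GRCm38.p6), with each CG dinucleotide in capitals. The Ctnnb1 stretch is chr9:120933150-120933399 and the Tcf7l2 stretch is chr19:55741560-55741809, both on the plus strand. The Ctnnb1 stretch lies within the longer gene span of the count annotation, whose outermost start is further upstream.
Ctnnb1: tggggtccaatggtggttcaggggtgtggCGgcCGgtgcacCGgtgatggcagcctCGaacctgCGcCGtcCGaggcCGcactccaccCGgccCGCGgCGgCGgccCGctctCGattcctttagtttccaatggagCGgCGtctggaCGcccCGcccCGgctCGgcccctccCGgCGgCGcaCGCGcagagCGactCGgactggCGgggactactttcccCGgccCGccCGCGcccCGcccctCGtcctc
Tcf7l2: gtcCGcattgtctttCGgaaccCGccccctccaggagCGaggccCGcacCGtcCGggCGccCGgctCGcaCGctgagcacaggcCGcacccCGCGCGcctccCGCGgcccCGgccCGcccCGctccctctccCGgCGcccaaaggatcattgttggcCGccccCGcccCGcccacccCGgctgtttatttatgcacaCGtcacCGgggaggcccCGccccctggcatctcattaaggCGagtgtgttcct
Both stretches are rich in CG pairs, with 35 for Ctnnb1 and 30 for Tcf7l2 against a median of 6 over 32851 stretches of the same length. Their GC contents were 74.8% and 72.8%. Stretches of 6 of the 8 genes were examined, 10 in all. The full palindromic estrogen response element (both strands), which 0.0639% of all stretches hold, was in none of the 10. The TCF and LEF site ATCAAAG (both strands), held by 3.21% of all stretches, was also in none, and neither was the E-box CACGTG, held by 6.02%. The TATA box TATAAA (both strands), held by 12.4% of all stretches, was in the Trp53 stretch and in the second listed stretches of Ctnnb1 and Tcf7l2. A match is a description of letters and not a site, and the absence of one concerns these windows only.

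On mm10 (GRCm38), Apc lay on chromosome 18 from 34220924 to 34322189 on the plus strand, and Smad4 on the same chromosome from 73639009 to 73703780 on the minus strand. Pik3ca (32397671 to 32468486) and Fbxw7 (84815268 to 84979198) were both on the plus strand of chromosome 3. Ctnnb1 spanned 120929216 to 120960507 of chromosome 9, Trp53 spanned 69580359 to 69591873 of chromosome 11, and Tcf7l2 spanned 55741810 to 55933654 of chromosome 19, all on the plus strand. Braf was on the minus strand of chromosome 6, from 39603237 to 39725463. All 8 are protein-coding genes. Of the exonic bases of Ctnnb1, 759 (14.6%) are shared with Ulk4 on the other strand, and 146 bases of Braf are shared with Ndufb2 on the other strand. The library kit keeps the strand, but the strand setting of the counting is not given in the sources used here. Ulk4 had only 14 to 64 counts per library beside 4208 to 9420 for Ctnnb1. Ppnr, a non-coding RNA gene inside an intron of Tcf7l2, shares no exonic base with it.

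The libraries held 8667177 to 17243712 counts on genes, with a median of 11530915, and all 24 colon epithelium markers were detected in each group. The 11 crypt stem and transit-amplifying markers summed to a CPM (counts scaled to the size of the library) of 310 to 1118. Markers of stratified squamous epithelium, a tissue of the anal canal and not of the colon mucosa, summed to 154 to 2850 CPM in HFD F and 172 to 1187 in HFD M, but to 139 to 218 in the other 3 groups. In CD F, smooth muscle markers summed to 7807 to 12100 CPM, against 10622 to 18310 in CD M. In whole tissue, fewer cells of a type and less RNA per cell cannot be told apart.

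A further feature of the libraries touched these genes directly. GEO's descriptions number the samples from 101 to 130, and the 8 libraries numbered 101 to 108 stood apart from the 22 numbered 109 to 130. The split was seen in these data, so it is described and not tested. The 8 libraries come from all 5 groups, with 2 each from CD F, HFD F and HFD M and 1 each from CD M and HFD+E2 M. What the numbers stand for is not given in the sources used here.

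Ctnnb1 showed the split most clearly. Its level, as CPM scaled by trimmed mean of M-values (TMM), was 596 to 785 (median 682) in the 8 libraries numbered 101 to 108 and 455 to 571 (median 497) in the other 22. The 2 sets do not overlap, whatever the diet, sex or treatment. Taken as log2 CPM with the group mean removed, the 8 were also all above the 22 (0.16 to 0.58 against -0.29 to 0.09). Such a lack of overlap occurred in 0.848% of the 15452 genes with a mean of at least 1 TPM (transcript abundance per length and library size), higher in 49 and lower in 82. With the groups in the model, Ctnnb1 was 0.45 higher on the log2 scale in the 8 libraries. By size, that difference lay at percentile 84.2 of the same genes, so many other genes differed more.

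Tcf7l2 went the other way. It was at 59.3 to 109 CPM (median 68.8) in the libraries numbered 101 to 108 and at 83.4 to 141 CPM (median 108) in the others. It was below its group mean in 8 of 8, and 0.50 lower on the log2 scale with the groups in the model. By size, that difference lay at percentile 87.7 of the genes with a mean of at least 1 TPM. The share of all genes with 8 of 8 below is not given here. The sets overlapped, through the HFD+E2 M library at 109 CPM and the HFD F library at 91.9 CPM.

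Fbxw7 (7 of 8 below the group mean, log2 difference -0.22) and Trp53 (5 of 8 below, -0.22) were lower in the libraries numbered 101 to 108, and Pik3ca was higher (7 of 8 above, 0.18). By size, these differences lay at percentiles 53.9 (Fbxw7), 53.6 (Trp53) and 46.1 (Pik3ca) of the genes with a mean of at least 1 TPM. They were thus about as large as that of the middle gene, and are no result about these 3 genes. Apc (-0.06), Braf (0.04) and Smad4 (0.06) were close to level between the sets. The GC content of transcripts moved with the split over all genes. The median log2 difference between the sets was 0.15 in the tenth of genes with the lowest GC content and -0.36 in the tenth with the highest. The longest transcripts of Ctnnb1 and Tcf7l2 had GC contents of 50.3% and 47.3%, at percentiles 56.7 and 40.1 of the genes. The part of GC content in the split was not tested.

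**Figure D1:**
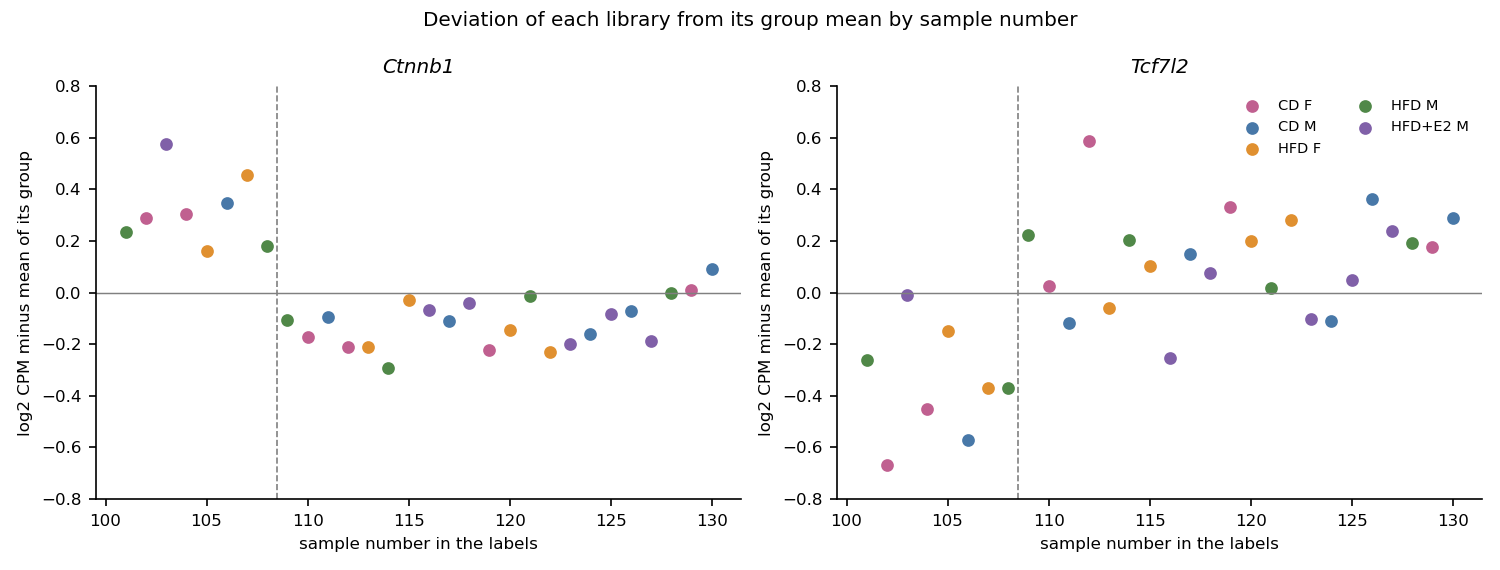
Log2 CPM of Ctnnb1 (left) and Tcf7l2 (right) minus the mean of the library's group (y axis) against the sample number in the labels (x axis), 1 point per library, coloured by group. Left of the dashed line, the 8 libraries numbered 101 to 108 lie at 0.16 to 0.58 for Ctnnb1, above the other 22, and at or below -0.01 for Tcf7l2.

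Each comparison between groups is therefore given over all its libraries, and for Tcf7l2 and some other values also without the libraries numbered 101 to 108, which leaves 4 or 5 per group. Within the 8 libraries alone, 1 or 2 per group are too few to compare.

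Per transcript length, the 8 genes spanned a wide range of levels, and the order was much the same in every group. Ctnnb1 was highest, with a median of 196 TPM over the 30 libraries (141 to 331). Smad4 followed at 60.5 TPM (44.3 to 80.0) and Apc at 51.6 TPM (37.5 to 85.5). Ctnnb1 was above Smad4 in 30 of 30 libraries, whereas Smad4 was above Apc in 24 of 30, so the order of Smad4 and Apc was within their spread.

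Tcf7l2, at a median of 36.7 TPM (18.6 to 50.7), was below Apc in 30 of 30 libraries and above Braf in 30 of 30. Braf (17.0 TPM, 13.4 to 22.6) and Pik3ca (16.4 TPM, 10.5 to 22.7) could not be ordered, since Braf was the higher in only 18 of 30. Trp53 (11.5 TPM, 7.43 to 16.0) was below Pik3ca in 30 of 30 libraries and above Fbxw7 (8.29 TPM, 5.10 to 13.1) in 26 of 30. The median level of Ctnnb1 lay above 98.5% of the 15452 genes with a mean of at least 1 TPM, and that of Fbxw7 above 50.4%. The full order held in 13 of 30 libraries, and the neighbours that changed places were Smad4 with Apc, Braf with Pik3ca and Trp53 with Fbxw7.

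**Figure D2:**
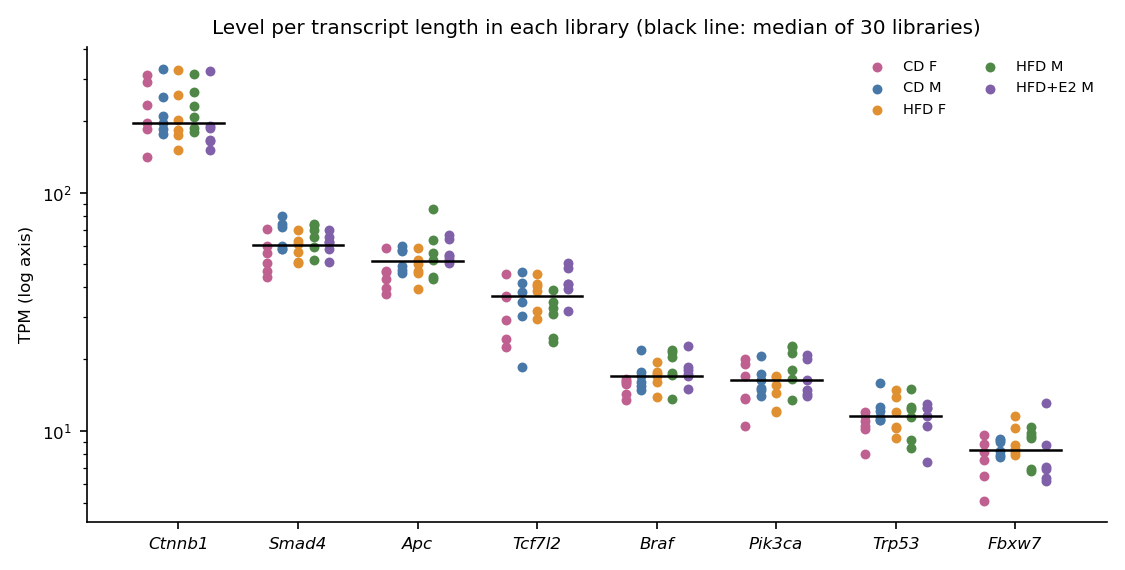
TPM of each gene (y axis, log scale) in each of 30 libraries, coloured by group, with genes in the order of their median (black line) on the x axis. Ctnnb1 stands alone at a median of 196 TPM, and the clouds of Smad4 with Apc, Braf with Pik3ca and Trp53 with Fbxw7 overlap in every group, apart from Trp53 with Fbxw7 in CD M.

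The genes also differed in how steady they were between libraries. After removal of the group means, Tcf7l2 varied most of the 8, with an SD of 0.32 on the log2 scale over 30 libraries. It was followed by Ctnnb1 (0.24) and Trp53 (0.23), and Braf varied least (0.11). Among the genes with a mean of at least 1 TPM, these SDs lay at percentiles 58.7 (Tcf7l2), 38.2 (Ctnnb1), 36.0 (Trp53) and 2.74 (Braf). When only the 22 libraries numbered 109 to 130 were used, the SD of Ctnnb1 was 0.10, the lowest of the 8 and at percentile 3.46 of all genes, while Tcf7l2 had 0.19 and Trp53 0.20. Braf, Pik3ca and Fbxw7 were close to Ctnnb1 there, at 0.12 each. The split was seen in these data, and the 8 libraries left out are those in which Ctnnb1 was highest. The fall in its SD therefore follows from that choice and is no trait of the gene.

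The first question was whether the sexes differ on CD. None of the 8 genes was called by edgeR's quasi-likelihood test at a Benjamini-Hochberg (BH) adjusted p under 0.05, in a comparison where 2.92% of 14922 genes were. At an unadjusted p under 0.05, 1 gene passed (Smad4), against 14.8% of all genes. The study counted a gene as changed where its p was below 0.05 before adjustment and its log2 fold change was beyond 0.4, up or down. No member met that threshold, which 9.15% of all genes met. DESeq2 also called 0 of the 8 after adjustment.

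Smad4, the common mediator of TGF-beta and BMP signals, was at 123 to 153 CPM (median 146) in CD F and at 147 to 195 CPM (median 161) in CD M. Females were mostly lower, with 3 of 6 below each male library, but the groups overlapped. The log2 fold change of females over males was -0.23 (SE 0.08, edgeR adjusted p = 0.183, a fold of 0.853 with a 95% interval of 0.755 to 0.965). An exact permutation test of log2 CPM gave p = 0.0152. Without the libraries numbered 101 to 108, the value was -0.22 (edgeR adjusted p = 0.239). Smooth muscle markers were also lower in CD F, with 16 of 16 past the study's threshold, as were 7 of 10 fibroblast markers, none of these markers being at 0. The part of muscle and fibroblasts in the Smad4 difference was not tested beyond a fit with the smooth muscle score as a term, in which Smad4 was at -0.27 (edgeR adjusted p = 0.261).

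The other 7 genes differed less between the sexes on CD, with log2 fold changes from -0.09 (Apc) to 0.06 (Ctnnb1). Ctnnb1 was at 478 to 689 CPM in CD F and 479 to 682 CPM in CD M, nearly the same range. Tcf7l2 was at 59.3 to 141 CPM in CD F and 67.4 to 129 CPM in CD M, again overlapping throughout. With the smooth muscle score in the fit, Ctnnb1 was at -0.36 (edgeR adjusted p = 0.143) and Tcf7l2 at 0.41 (adjusted p = 0.562). When the libraries numbered 101 to 108 were left out, Ctnnb1 was at -0.03, Tcf7l2 at 0.07, Fbxw7 at 0.01 and Trp53 at -0.12 (0.06, -0.06, -0.06 and -0.07 with them). The direction of the first 3 turned, as did those of Braf (-0.03) and Pik3ca (-0.01). CD was the only comparison in which partner genes were called, as described after the last comparison. It was also the one with most calls, at 2.92% of all genes against at most 0.0988% in the others.

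On HFD, 0 of the 8 genes differed between the sexes by edgeR at an adjusted p under 0.05, against 0.0988% of 15179 genes. One member (Tcf7l2) had an unadjusted p under 0.05, as did 5.09% of all genes, and 0 met the study's threshold, as did 3.09% of all genes. DESeq2 called 0 after adjustment.

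Tcf7l2 was at 78.8 to 124 CPM (median 104) in HFD F and at 63.8 to 96.4 CPM (median 88.8) in HFD M. In 4 of 6 female libraries it was above each male library, and the lowest males were the 2 libraries numbered below 109. The log2 fold change of females over males was 0.32 (SE 0.13, edgeR p = 0.0261, adjusted p = 0.872), and the exact permutation test gave p = 0.0693. Leaving out HFD F replicate 4, 5 or 6 or HFD M replicate 1 or 2 brought the edgeR p to between 0.053 and 0.0701. Without the libraries numbered 101 to 108, the 4 females (97.7 to 124 CPM) and the 4 males (83.4 to 96.4 CPM) did not overlap. The log2 fold change was then 0.30 (edgeR p = 0.00832, adjusted p = 0.852), and the exact permutation p of 0.0286 is the smallest that 4 against 4 can give. The libraries left out include the 2 lowest males, and leaving them out was chosen after seeing the data. The share of all genes without overlap in this subset is not given here.

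Apc and Pik3ca were at -0.16 each in females over males on HFD, with 95% intervals that span 0 and the remaining 5 genes lay between -0.09 and 0.09. The Apc value rested on single libraries. It was -0.08 without HFD M replicate 1, -0.23 without HFD M replicate 6 (past the unadjusted threshold, edgeR adjusted p = 0.582) and -0.02 without the libraries numbered 101 to 108, where Pik3ca was at -0.11 and Ctnnb1 at -0.10. Pik3ca was at 101 to 135 CPM in HFD F and 111 to 157 CPM in HFD M. Calculated on log2(TPM + 0.1) instead of CPM, the Pik3ca difference was -0.37 (exact permutation p = 0.0455), so its size depended on the unit. Squamous markers were higher in HFD F than in HFD M (3 of 21 past the study's threshold, median log2 fold change 2.36), and their part in these values was not tested.

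The next question was the response to HFD in each sex. In females, 0 of the 8 genes were called by edgeR after adjustment (0.0199% of 15061 genes were), 0 had an unadjusted p under 0.05 (5.68% did) and 0 met the study's threshold (3.67% did). DESeq2 called 0. The log2 fold changes of HFD over CD ran from -0.06 (Pik3ca) to 0.09 (Tcf7l2). The median of their sizes, 0.06, was below the median size of all genes tested, 0.10, as it was in each other comparison. By level, the 8 genes lay at percentiles 56.1 to 99.3 of the genes tested, and the part of level in these sizes was not tested. In the 8 libraries numbered 109 and above, the log2 fold changes ran from -0.11 (Pik3ca) to 0.11 (Trp53), with Tcf7l2 at -0.03 and Fbxw7 at 0.01. Tcf7l2 thus changed direction, and Pik3ca and Trp53 were further from 0. Trp53 was at 16.3 to 20.3 CPM in CD F and 14.9 to 22.1 CPM in HFD F. Fbxw7 was at a mean of 32.2 CPM ± 5.22 (SD, n = 6) in CD F and 33.4 ± 3.01 in HFD F. Both genes overlapped between the diets over most of their ranges. All 8 tested squamous markers were higher in HFD F than in CD F past the study's threshold, and their part in the values of the 8 genes was not tested.

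In males, the response to HFD was likewise not detectable in these genes. By edgeR, 0 were called after adjustment (0% of 14991 genes were, and DESeq2 called 0 of the 8), 0 had an unadjusted p under 0.05 (6.03% did) and 0 met the study's threshold (2.9% did). Tcf7l2 moved furthest. It was at 67.4 to 129 CPM (median 102) in CD M and 63.8 to 96.4 CPM (median 88.8) in HFD M, a log2 fold change of -0.29 (SE 0.15, edgeR adjusted p = 0.825). Its ranges overlapped, and without the libraries numbered 101 to 108 it was at -0.25 and passed the unadjusted threshold (edgeR adjusted p = 0.927). So it did without CD M replicate 1 alone, at -0.39 (edgeR adjusted p = 0.462), and without HFD M replicate 4, at -0.34 (adjusted p = 0.634).

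Apc was at 245 to 300 CPM in CD M and 218 to 378 CPM in HFD M. The HFD M group held both the lowest and the highest Apc value of all 30 libraries. Its log2 fold change of 0.12 became 0.00 without the libraries numbered 101 to 108, as did that of Pik3ca, which was 0.12 with them. The highest value belonged to sample number 101.

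Whether the sexes differ in their response to HFD was tested as an interaction of sex and diet over 24 libraries. By edgeR, 0 of the 8 genes were called after adjustment (0% of 15800 genes were, and DESeq2 called 0 of the 8), 0 had an unadjusted p under 0.05 (6.75% did) and 0 met the study's threshold (5.18% did). Tcf7l2 had the largest difference, with an interaction of 0.38 (SE 0.25, edgeR adjusted p = 0.762) and a 95% interval of -0.13 to 0.90. With the sample number split as a term it was 0.31 (edgeR adjusted p = 0.584), and without CD F replicate 4 it was 0.51 (adjusted p = 0.627), both past the unadjusted threshold. Without the libraries numbered 101 to 108 it was 0.23 (edgeR adjusted p = 0.833) and not past it. Its HFD response was 0.09 in females and -0.29 in males. Pik3ca was at -0.18 and Trp53 at 0.15, both with intervals that span 0. Without the libraries numbered 101 to 108 they were at -0.11 and 0.15, and Apc was at 0.03 (-0.07 with them).

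The last comparison asked what E2 changes in HFD males. By edgeR, 0 of the 8 genes were called after adjustment, against 0.00666% of 15010 genes, and DESeq2 called 0. One gene, Tcf7l2, had an unadjusted p under 0.05, as did 10.2% of all genes, and met the study's threshold, as did 5.87%. A share of 1 in 8 is near these backgrounds and is no result about the set.

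Tcf7l2 was at 63.8 to 96.4 CPM (median 88.8) in HFD M and at 92.3 to 130 CPM (median 112) in HFD+E2 M. In 5 of 6 E2 libraries it was above each vehicle library, and the groups overlapped through the E2 library at 92.3 CPM. The fold of E2 over vehicle was 1.33 (95% interval 1.12 to 1.59, log2 0.41, SE 0.12, edgeR adjusted p = 0.454). The exact permutation test gave p = 0.00866. Its value in HFD+E2 M, a mean of 111 CPM ± 12.7 (SD, n = 6), was close to that of HFD F, 103 ± 16.8, and of CD M, 103 ± 22.8, whereas HFD M was at 83.6 ± 14.3.

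The libraries numbered 101 to 108 bear on this value, since HFD M holds 2 of them and HFD+E2 M holds 1. Without them, 4 HFD M libraries (83.4 to 96.4 CPM) were compared with 5 HFD+E2 M libraries (92.3 to 130 CPM). The log2 fold change was then 0.28 (edgeR p = 0.0221, adjusted p = 0.584, exact permutation p = 0.0635), which is not past the study's threshold. Leaving out HFD M replicate 1 or 2 or HFD+E2 M replicate 6 singly gave 0.37, 0.35 and 0.36, also under that threshold. With the split as a term over all 12 libraries it was 0.38 (edgeR adjusted p = 0.334). The HFD M group is shared by the E2, HFD and sex comparisons of males, so the Tcf7l2 values of -0.29, 0.32 and 0.41 all rest on the same 6 libraries. With the squamous score in the fit the E2 value was 0.34 (edgeR adjusted p = 0.869), and 4 of 7 tested squamous markers were lower with E2 past the study's threshold. Of all 25 squamous markers, Crct1, Ivl, Sprr1b and Sprr3 were at 0 in HFD+E2 M. Markers were also at 0 without E2, namely Crct1, Dsg3 and Sprr1b in CD F and Crct1, Sprr1b and Sprr3 in CD M. None was at 0 in HFD F or HFD M. The part of squamous tissue in the Tcf7l2 value was not tested further.

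The other 7 genes ranged from -0.12 (Braf) to 0.08 (Trp53) with E2. When the libraries numbered 101 to 108 were left out, they ranged from -0.09 (Braf and Ctnnb1) to 0.08 (Fbxw7), and Apc was at 0.07 (-0.04 with them). Braf was at 73.5 to 94.8 CPM in HFD M and 70.1 to 90.5 CPM in HFD+E2 M. Ctnnb1 was at 457 to 658 CPM in HFD M and 458 to 785 CPM in HFD+E2 M, where 1 library was at 785 and the other 5 were at 458 to 512 CPM.

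**Figure D3:**
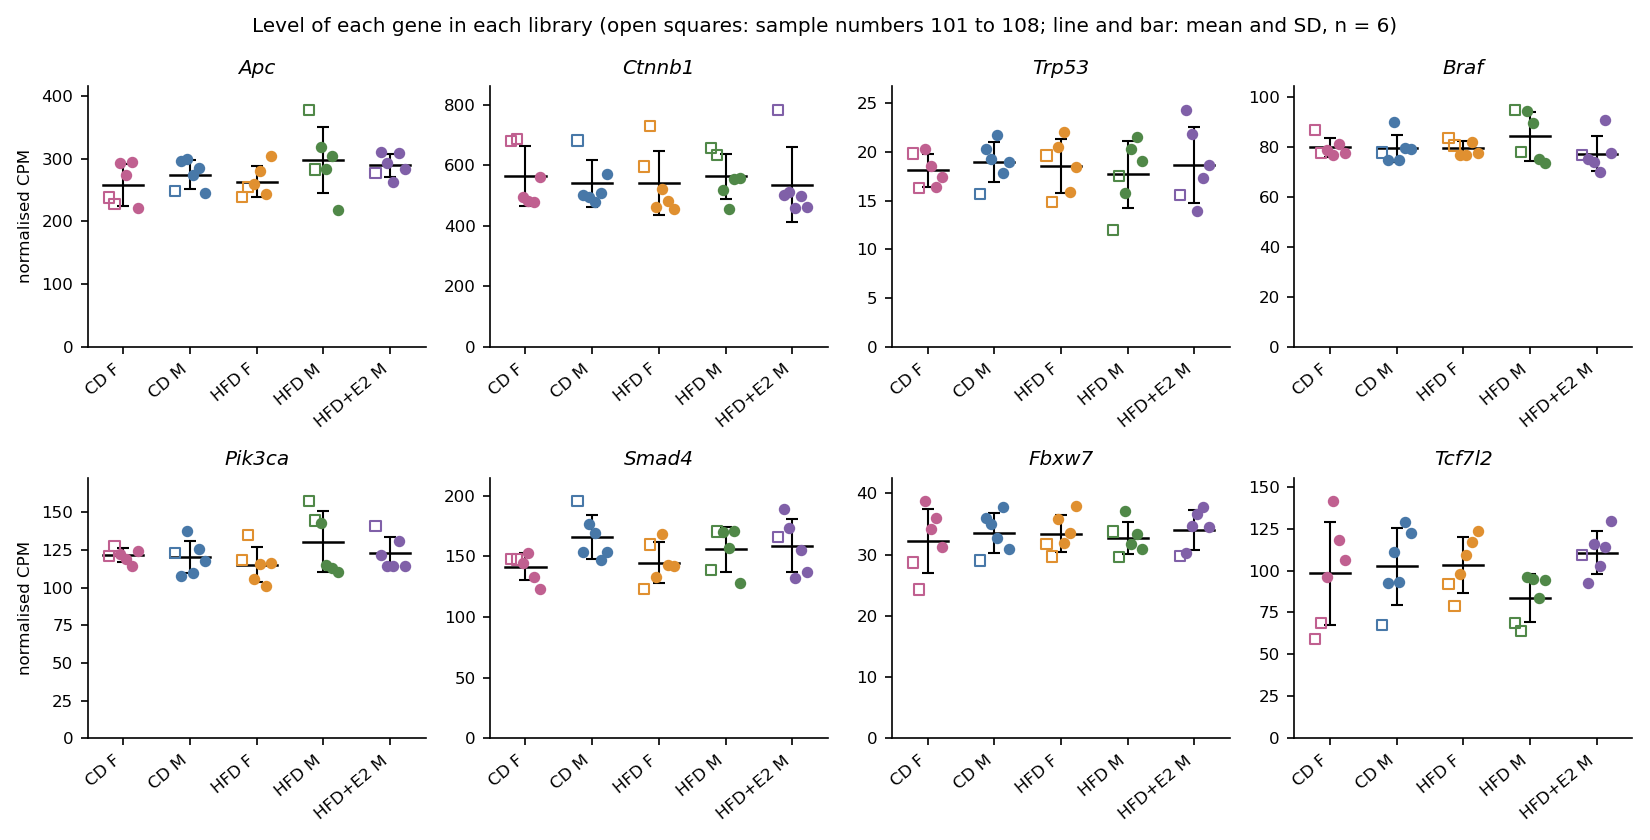
Normalised CPM (y axis, from 0) of each gene in each library by group (x axis), with open squares for the libraries numbered 101 to 108, dots for the others, and the mean with its SD (n = 6) in black. The open squares sit at the top of each group for Ctnnb1 and, apart from HFD+E2 M, at the bottom for Tcf7l2, whose HFD M mean of 83.6 CPM is the lowest of its 5 groups.

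Over the 5 pairs of groups, the data also bound how large a difference could be. Of the 40 intervals (8 genes in 5 pairs), 32 lay within a log2 fold change of 0.4 in either direction. Of the 8 that did not, 5 were those of Tcf7l2. For the other 7 genes, the lowest lower bound was -0.41 and the highest upper bound 0.42, or folds of 0.752 and 1.33. These intervals, from 6 libraries per group, are not adjusted for the number of tests. Their extremes are no limit of detection, and the smallest change that could be called was not calculated.

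**Figure D4:**
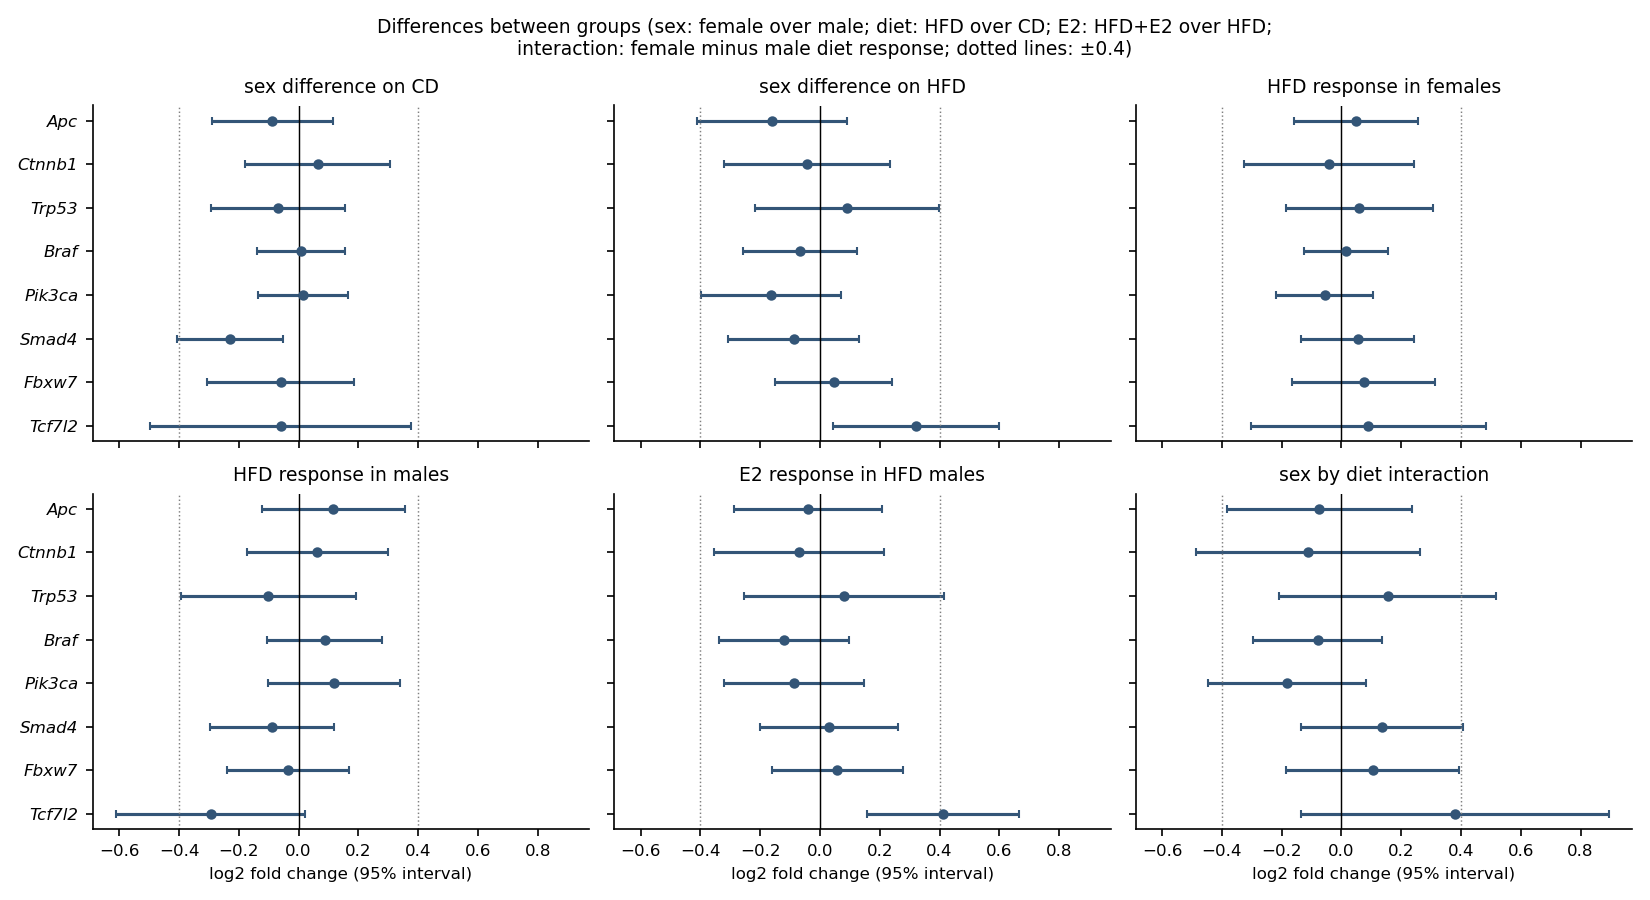
Log2 fold change (x axis) of each gene (y axis) in the 6 comparisons, with 95% intervals from edgeR, the dotted lines marking 0.4 in either direction. The intervals of Smad4 (sexes on CD) and of Tcf7l2 (sexes on HFD and E2) are the 3 that do not span 0.

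The lists of pathway partners, which contain none of the 8 genes, give the surroundings of each member. On CD, 3 of 65 tested Wnt genes were called by edgeR, 1 higher and 2 lower in females, beside 2.92% of all genes. Lgr5, the stem cell receptor of R-spondins, was higher in females (log2 0.53, adjusted p = 0.0472). Nkd2, an inhibitor of Wnt signaling (log2 -0.62, adjusted p = 0.0329), and Ccnd1, which encodes cyclin D1 (log2 -0.43, adjusted p = 0.0484), were lower.

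Of 41 TGF-beta, BMP and SMAD genes tested on CD, 4 were called and all 4 were lower in females. Over all genes 2.92% were called, 319 of 435 of them lower in females. Among them were the BMP antagonist Grem1 (log2 -0.87, adjusted p = 0.000154), the TGF-beta co-receptor Tgfbr3 (log2 -0.58, adjusted p = 0.018) and Id4, an inhibitor of helix-loop-helix factors (log2 -1.12, adjusted p = 0.00291). Grem1 is known from the muscle layers and the cells around the crypts. Smooth muscle markers were lower in the same females, with 10 of 16 called, and their part was not tested. Among 58 other recurrent CRC genes, Rspo3 (log2 -0.68, adjusted p = 0.0306), a Wnt enhancer, and Fat4 (log2 -0.47, adjusted p = 0.0327), a cadherin, were lower in females.

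In the RAS, RAF and MAP kinase list, 1 of 40 genes was called on CD, the growth factor gene Egf (log2 0.56, adjusted p = 0.0401), which was higher in females. No gene of the p53 list (37 tested), the PI3K and mTOR list (35) or the list of Fbxw7's ligase partners and substrates (25, without Fbxw7) was called on CD. The median log2 fold changes of the 7 lists on CD lay between -0.09 and 0.07, beside 0.01 over all genes.

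In the other 5 comparisons, 0 genes of the 7 lists were called by edgeR. Few genes of any kind were called there. The shares of all genes were 0.0988% (sexes on HFD), 0.0199% (HFD in females), 0% (HFD in males), 0.00666% (E2) and 0% (interaction). The lack of calls is therefore no result about the lists. By the study's threshold, E2 gave 7 of 38 p53 genes lower and 0 higher, against 5.87% of all genes, of which 395 were higher and 486 lower. The list's median was -0.04. In the same comparison 3 of 10 tested crypt stem and transit-amplifying markers were lower past that threshold and 0 higher (median -0.19; summed CPM 310 to 506 with E2 and 420 to 836 without), as were the 4 squamous markers. The part of these cells in the p53 list was not tested. HFD in females gave 5 of 66 Wnt genes higher and 0 lower, beside 444 higher and 109 lower over all genes (3.67%). HFD in males gave 0 higher and 4 lower of 65, beside 188 and 246 (2.9%). The interaction gave 4 of 66 Wnt genes higher in females and 0 lower, beside 586 and 232 (5.18%), and those differences were not called after adjustment.

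None of the partner genes named next was called after adjustment. Nras, a switch above Braf, lay between -0.24 and 0.18 in all 6 comparisons. Smad2, a partner of Smad4, lay between -0.16 and 0.05. Smad3, the other such partner, was at 0.26 with E2 (edgeR adjusted p = 0.461). Mdm2, which targets p53 for destruction, lay between -0.16 and 0.13.

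Cdkn1a, the p53 target that encodes p21, was at 0.59 in CD F over CD M on the log2 scale (edgeR adjusted p = 0.0601), just short of the threshold, and at 0.32 with E2 (adjusted p = 0.455). Trp53 itself was at -0.07 and 0.08 in those comparisons. Axin2, a direct target of beta-catenin, was at -0.26 with HFD in females, -0.29 with HFD in males and 0.31 with E2, none past the unadjusted threshold by edgeR. Tcf7, a relative of Tcf7l2 that T cells also express, was at 0.64 with E2 (edgeR adjusted p = 0.461) and at 0.52 between the sexes on HFD (adjusted p = 0.872). Lef1, the other relative, was at -0.48 with HFD in males, not past the unadjusted threshold by edgeR.

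Whether the genes varied together between libraries was examined in the 22 libraries numbered 109 to 130, with the group means removed, because a pooled value over both sets of libraries would carry the split. Of the 28 pairs, 0 passed a permutation test within groups after BH adjustment. Braf and Pik3ca had the highest correlation, with Pearson r = 0.68 (permutation p = 0.00273, adjusted p = 0.0559) and Spearman rho = 0.50 (permutation p = 0.0358, adjusted p = 0.245), and r fell to 0.51 without the 2 libraries farthest from the median of Braf. Apc and Smad4 had r = 0.64 (permutation p = 0.00399, adjusted p = 0.0559) and rho = 0.54 (permutation p = 0.0162, adjusted p = 0.245), with r = 0.48 without the farthest 2. Ctnnb1 and Tcf7l2, opposite in the split, had r = -0.05 (permutation p = 0.828, adjusted p = 0.83) and rho = -0.04 (permutation p = 0.863, adjusted p = 0.863).

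Over all 30 libraries, by contrast, 5 of the 28 pairs passed by Pearson r. They were Ctnnb1 with Tcf7l2, Ctnnb1 with Fbxw7, Ctnnb1 with Pik3ca, Fbxw7 with Tcf7l2, and Apc with Fbxw7. By size of the difference between the sets, Ctnnb1 and Tcf7l2 lay at percentiles 84.2 and 87.7 of all genes. Fbxw7 and Pik3ca lay at 53.9 and 46.1, and Apc at 18.3. The part of the split in these 5 pairs was not tested. Trp53 with Pik3ca passed by Spearman rho (rho = -0.53, permutation p = 0.00979, adjusted p = 0.0457) but not by r (r = -0.51, permutation p = 0.015, adjusted p = 0.0702). Apc with Fbxw7 had r = 0.56 (permutation p = 0.0166, adjusted p = 0.155) and rho = 0.55 (permutation p = 0.0186, adjusted p = 0.245) within the 22 libraries, and r = 0.44 without the farthest 2. The relation of Ctnnb1 to Tcf7l2 does not hold within the 22 libraries. Against scores of 12 cell types, 1 of 96 pairs passed by Pearson r over all 30 libraries, Ctnnb1 with the smooth muscle score. It had r = -0.70 (permutation p = 5e-05, adjusted p = 0.0048) and rho = -0.70 (permutation p = 7e-05, adjusted p = 0.00672). Ctnnb1 with the plasma cell score passed by rho (rho = 0.63, permutation p = 0.00046, adjusted p = 0.0221) but not by r (r = 0.55, permutation p = 0.00173, adjusted p = 0.0586). In the 22 libraries, 0 of the 96 pairs passed. The strongest was Ctnnb1 with the smooth muscle score, with r = -0.62 (permutation p = 0.00671, adjusted p = 0.624) and rho = -0.58 (permutation p = 0.0128, adjusted p = 0.712).

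**Figure D5:**
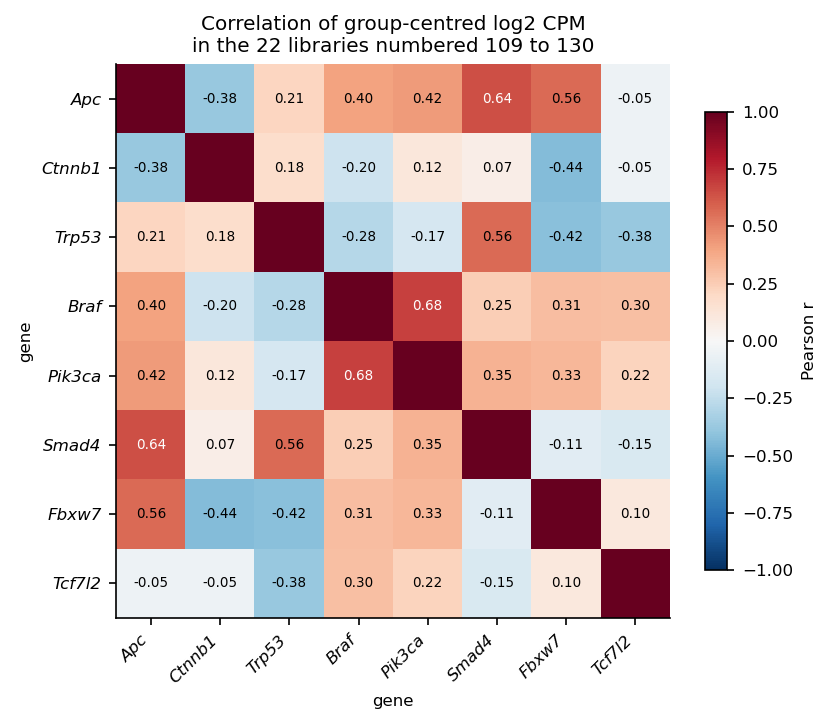
Pearson r of log2 CPM with group means removed between each pair of the 8 genes (both axes) over the 22 libraries numbered 109 to 130, red for positive and blue for negative. Braf with Pik3ca (0.68) and Apc with Smad4 (0.64) are highest, and Ctnnb1 with Tcf7l2 is at -0.05.

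For each gene, the 3 genes with the most similar pattern over the 30 libraries were taken from 15231 genes with a mean of at least 1 TPM and counts that varied. The libraries share depth and the split, so these values are descriptive. Ctnnb1 was followed by Sdcbp, Mdh1 and Cox7a2, with r of 0.97, 0.97 and 0.96. Within the 22 libraries numbered 109 to 130 the same 3 genes had r of 0.86, 0.85 and 0.83.

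Tcf7l2 was followed by Rere, R3hdm2 and Myo10 at 0.87, 0.83 and 0.82, and these dropped to 0.73, 0.40 and 0.36 within the 22 libraries. Apc was most like Caprin1, Ankrd17 and Dennd4c (0.91, 0.89 and 0.89, and 0.93, 0.87 and 0.86 within the 22). Smad4 was most like Lypd8, Rac1 and Ubl5 (0.83, 0.79 and 0.77, and 0.84, 0.80 and 0.79 within the 22). For Apc and Smad4, which differed little between the sets, the likeness was thus about the same with and without the first 8 libraries.

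Braf was most like Myo9a, Lpp and Map4k5 (0.83, 0.80 and 0.78, and 0.88, 0.77 and 0.77 within the 22). Pik3ca was most like Akap11, Nek7 and AI314180 (0.88, 0.85 and 0.85, and 0.86, 0.82 and 0.75 within the 22). Fbxw7 was most like Gm14410, Golgb1 and Ylpm1 (0.94, 0.88 and 0.88, and 0.89, 0.86 and 0.68 within the 22). Over the 30 libraries Trp53, one of the least abundant of the 8 at 160 to 378 counts per library, had the weakest likeness to any gene. Cops7a was at 0.76, Ucp2 at 0.72 and Lmf2 at 0.72, and within the 22 they were at 0.71, 0.64 and 0.54.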

How the data were processed

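RNA-seq libraries (TruSeq Stranded Total RNA with ribosomal RNA removal) were made from colon tissue of 30 mice. Per the labels and the study's methods, the authors trimmed reads with Trim Galore, aligned them to mm10 with STAR, counted reads per gene with featureCounts and estimated TPM with StringTie, and bcl2fastq 2.19.1.403 is also named. The raw counts of the merged table are used as the authors deposited them. The deposited TPM values of each library, with 16 to 24 repeated gene rows per library summed, served for levels between genes. The strand setting of the counting is not given in the sources used here.

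Groups came from the labels. Counts were fitted with edgeR 4.0.16 (quasi-likelihood test, TMM scaling, its filter on low counts) in R 4.3.3, separately for each pair of groups, and over 24 libraries for the interaction. Calls used BH adjusted p under 0.05 over all genes tested, beside the study's threshold. The tests were tested on simulated data first. Normalised CPM are TMM-scaled, and log2 CPM use a prior count of 2. Exact two-sided permutation tests used all 924 splits of 6 against 6, and correlations 100000 permutations within groups, both in Python 3.11.15 with numpy 2.4.6.

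Depth was 8667177 to 17243712 counts per library. The study's methods call the 6 libraries of a group biological replicates, and p-values measure the spread between them. Named genes were the 8 members, list genes called after adjustment (up to 4 per list), fixed partners whatever their values (some list genes and partners are not reported here), and the 3 most similar genes per member. The members and lists were chosen with earlier results of these data known. Alternatives were DESeq2 1.42.0, its size factors, other filters, all 30 libraries in one fit, a replicate block, each library left out, no mitochondrial genes, scores of 4 tissues, and other pseudocounts. The fits with and without the libraries numbered 101 to 108 were chosen after seeing the data.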

Additional observations from a re-analysis of the deposited data

Results flagged for a closer look

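Of the 40 combinations of the 8 genes with the 5 groups, 2 held a library far from the other 5 of its group by Dixon's criterion for 6 values at the 95% level, which chance alone gives in about 1 of 20 groups. Ctnnb1 was at 785 CPM in HFD+E2 M replicate 1, which is sample number 103, while the other 5 libraries of that group were at 458 to 512 CPM. It is the only library of its group numbered 101 to 108. Braf was at 89.8 CPM in CD M replicate 3, sample number 117, while the other 5 were at 74.7 to 79.3 CPM.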

How the results depend on the processing

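By adjusted p, 0 of the 8 genes were called in the 6 comparisons under each alternative run, DESeq2 included. Over all genes, counts by adjusted p moved by more than 1.5 times as follows. DESeq2 called 770 genes between the sexes on CD (edgeR 435), 50 on HFD (15), 224 for HFD in females (3), 26 for HFD in males (0), 54 for E2 (1) and 3 for the interaction (0). It was run without edgeR's filter on low counts, on 27677 genes on CD against 14922 with edgeR. Tool and filter thus changed together in each DESeq2 count. One fit of all 30 libraries gave 30 between the sexes on HFD, 86 and 3 for HFD in females and males, 0 for E2 and 1 for the interaction. A filter of at least 10 counts in each library gave 1 between the sexes on HFD and 0 for HFD in females, and no filter gave 3 for E2 and 1 for the interaction. The smooth muscle score gave 238 between the sexes on CD and 2 for E2, the squamous score 288 on CD and 1 for HFD in females, the B cell score 46 on CD, 1 for HFD in females and 2 in males, and the colon epithelium score 1 for the interaction. A term for sample numbers 101 to 108 gave 655 on CD, 6 for HFD in females and 4 in males, and without those libraries 0 genes were called for HFD in females and 1 for the interaction. Past the study's threshold, no filter gave 2253 and 1165 genes between the sexes on CD and HFD (edgeR with its filter 1366 and 469), 1496 and 1056 for HFD in females and males (553 and 434), 1805 for E2 (881) and 1543 for the interaction (818). DESeq2 gave 730 between the sexes on HFD and 1018 for HFD in females, the smooth muscle score 2328, 868 and 474 for the sexes on CD, on HFD and the interaction, the squamous score 328, 479 and 452 for HFD in females, E2 and the interaction, and the B cell score 876 on CD. The cause of these shifts was not tested. Tcf7l2 with E2, the 1 member past that threshold, was not past it (0 members) with the smooth muscle score, the squamous score, the sample number term or without the libraries numbered 101 to 108.

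Leaving out 1 library at a time gave 244 to 691 genes by adjusted p between the sexes on CD (lowest without CD M replicate 3, highest without CD M replicate 1), 11 to 15 on HFD, 1 to 11 for HFD in females, 0 to 2 in males, 1 to 2 for E2 and 0 to 1 for the interaction. Past the study's threshold the ranges were 1223 to 1684, 363 to 770, 481 to 827, 346 to 706, 557 to 1497 and 641 to 1418, with 0 to 1 members for E2 and for the interaction. Replicate numbers are shared between groups, but correlations of the deviations of same-numbered libraries ran from -0.22 to 0.47 and did not all exceed 0.1 in any comparison, so the libraries were not treated as paired. Replicate 1 of each group is numbered between 101 and 108, so the replicate number carries part of that split. The fit with a replicate block called 941 genes between the sexes on CD, 12 and 2 for HFD in females and males, 7 for E2 and 1 for the interaction, where it also put 1 member, Tcf7l2, past the study's threshold. Exact permutation tests at p under 0.05 found 0 members between the sexes on HFD, but 1 on log2(TPM + 0.1) and on log2(TPM + 1) (Pik3ca) and 1 without the libraries numbered 101 to 108 (Tcf7l2). For E2 they found 1 (Tcf7l2) and 0 without those libraries. A filter on mean TPM does not enter a test of a single gene. Over 30 libraries 5 member pairs and 1 pair with a cell type score (Ctnnb1 with smooth muscle) passed by Pearson r. On log2(TPM + 0.1) the counts were 3 and 2, and in the 22 libraries 0 and 0. Of the refitted log2 fold changes of members, 1286 kept their direction or differed by less than their SE, and 10 did neither.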
